A study of Mus musculus with 2 samples.

Results

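The 500 strongest distal open regions of adult mouse kidney were examined. They were chosen by their DNase-seq signal from the open regions that 2 libraries shared. A region was distal if it lay on chromosomes 1 to 19 and more than 500 bases from the transcription start site (TSS) of every protein-coding transcript in GENCODE M21. Of 96746 shared regions, 94507 lay on these chromosomes and 75723 of those were distal. Regions whose signal differed more than 2-fold between the libraries were left out, which removed 10690. The 500 with the highest mean signal were then taken from the remaining 65033, which are called all distal regions below. The 18784 shared regions within 500 bases of a coding TSS are called promoter regions.

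Both libraries came from kidney of female B6CASTF1/J mice, 8 to 10 months old and untreated as far as the labels say. They form 1 group and are biological replicates 1 and 2. The labels list separate tissue samples under a single donor entry and do not state separate animals, and differences between the libraries may be technical. B6CASTF1/J mice carry 1 C57BL/6J and 1 CAST/EiJ chromosome set, while coordinates and sequence are those of the C57BL/6J reference. Of 13 kidney marker genes, 10 had a shared promoter region, and Aqp2 and Nphs1 were among those with none. Of 5 markers of other tissues, 1 had a shared promoter region (Alb, mean signal 0.373).

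DNase I cuts DNA where nucleosomes have been displaced, so strong DNase-seq signal marks promoters, enhancers and insulators. Within such a region, short stretches that are cut less than their surroundings are called footprints and can mark bound protein. The kidney is built largely of tubule epithelium, and like other organs it runs a circadian clock. In that clock the activator pair CLOCK and BMAL1 binds the E-box and drives the genes of its own repressors. In whole tissue, a region open in few cells and a region weakly open in many cells cannot be told apart.

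Sequences of 11 of the regions are shown, because they carry motifs that the values below describe, among them promoter-type motifs and the E-box. Each is the central 200-base window of its region, read from the plus strand of the RefSeq GRCm38.p6 genome (mm10), and each is named by the nearest protein-coding TSS. Capitals mark matches, on either strand, to a fixed set of motifs. These were SP/KLF (GGGCGGGG), NRF1 (GCGCANGCG), CREB (TGACGTCA), E-box (CACGTG), NFY (CCAATCAG), AP-1 (TGANTCA), HNF1 (GTTAATNAT), RORE (TAGGTCA), GRE (ACANNNTGT) and TFAP2 (GCCNNNGGC). Adjacent or overlapping matches run together in capitals. A match is a description of the letters and not evidence of a bound factor.

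The first 3 are among the strongest 20 regions and hold motifs common at promoters.
Nr1d1 intron: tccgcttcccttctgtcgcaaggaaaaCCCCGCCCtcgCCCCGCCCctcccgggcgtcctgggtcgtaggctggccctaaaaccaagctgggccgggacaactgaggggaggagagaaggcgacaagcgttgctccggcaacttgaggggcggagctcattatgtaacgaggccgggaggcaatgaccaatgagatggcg
Mxi1: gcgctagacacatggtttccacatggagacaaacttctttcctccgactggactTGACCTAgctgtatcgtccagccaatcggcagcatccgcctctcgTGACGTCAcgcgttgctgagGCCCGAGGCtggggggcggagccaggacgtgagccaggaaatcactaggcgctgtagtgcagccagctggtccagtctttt
Rprd2: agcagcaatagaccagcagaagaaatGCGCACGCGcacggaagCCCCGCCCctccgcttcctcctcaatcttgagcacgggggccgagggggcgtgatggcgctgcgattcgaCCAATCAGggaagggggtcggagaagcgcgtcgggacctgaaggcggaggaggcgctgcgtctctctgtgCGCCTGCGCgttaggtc
The next 6 lie nearest to genes of the circadian clock, and 5 of them hold at least 1 E-box.
Nr1d1 upstream: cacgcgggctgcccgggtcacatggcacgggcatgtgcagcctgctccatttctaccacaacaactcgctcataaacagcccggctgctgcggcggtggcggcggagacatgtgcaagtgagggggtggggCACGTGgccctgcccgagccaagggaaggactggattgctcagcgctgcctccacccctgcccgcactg
Per1: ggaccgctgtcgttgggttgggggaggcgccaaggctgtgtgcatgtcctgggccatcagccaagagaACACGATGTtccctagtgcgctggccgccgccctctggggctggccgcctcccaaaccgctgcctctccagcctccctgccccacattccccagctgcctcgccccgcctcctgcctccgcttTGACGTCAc
Hlf: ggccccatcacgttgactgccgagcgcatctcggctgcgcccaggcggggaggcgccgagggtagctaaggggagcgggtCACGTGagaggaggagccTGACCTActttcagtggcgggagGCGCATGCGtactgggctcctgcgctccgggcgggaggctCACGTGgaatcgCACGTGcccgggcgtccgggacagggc
Dbp: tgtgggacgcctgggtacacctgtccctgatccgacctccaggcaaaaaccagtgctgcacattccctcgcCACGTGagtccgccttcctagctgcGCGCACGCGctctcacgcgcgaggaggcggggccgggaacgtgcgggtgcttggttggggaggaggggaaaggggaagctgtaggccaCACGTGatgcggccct
Bhlhe41: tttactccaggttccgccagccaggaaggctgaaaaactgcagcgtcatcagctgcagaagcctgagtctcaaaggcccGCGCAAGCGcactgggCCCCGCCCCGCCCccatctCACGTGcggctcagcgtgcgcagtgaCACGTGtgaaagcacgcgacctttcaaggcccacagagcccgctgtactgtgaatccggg
Cry2: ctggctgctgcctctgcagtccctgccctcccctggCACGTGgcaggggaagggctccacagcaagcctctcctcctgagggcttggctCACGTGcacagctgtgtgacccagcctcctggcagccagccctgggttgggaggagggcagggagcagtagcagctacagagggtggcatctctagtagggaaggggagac
The last 2 lie nearest to an immediate early gene and to a proximal tubule gene.
Ier3: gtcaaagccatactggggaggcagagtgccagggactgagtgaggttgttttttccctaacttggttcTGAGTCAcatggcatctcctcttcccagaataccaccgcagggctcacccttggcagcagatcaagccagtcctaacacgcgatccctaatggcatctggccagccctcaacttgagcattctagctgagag
G6pc: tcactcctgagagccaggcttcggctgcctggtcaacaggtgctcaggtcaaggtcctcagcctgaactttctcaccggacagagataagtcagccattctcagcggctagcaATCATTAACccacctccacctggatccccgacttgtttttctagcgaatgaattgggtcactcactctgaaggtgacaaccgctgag

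The windows are chr11:98773921-98774120 (Nr1d1 intron), chr19:53314231-53314430 (Mxi1), chr3:95819331-95819530 (Rprd2), chr11:98783411-98783610 (Nr1d1 upstream), chr11:69097011-69097210 (Per1), chr11:90418031-90418230 (Hlf), chr7:45707641-45707840 (Dbp), chr6:145855751-145855950 (Bhlhe41), chr2:92423831-92424030 (Cry2), chr17:35813331-35813530 (Ier3) and chr11:101362401-101362600 (G6pc). In the Hlf window, 4 of 5 motif matches were covered to 50% or more by a footprint found in both libraries. All 3 matches in the Dbp window and both in the Cry2 window were covered to that extent. The AP-1 match in the Ier3 window was not, and the HNF1 match in the G6pc window was.

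The signal that chose the regions is given as a description. Mean signal ran from 8.21 to 31.4 with a median of 10.2, against a median of 0.885 over all distal regions and 2.76 over promoter regions. In replicate 1 the regions ranged from 5.78 to 29.4 (median 10.5), and in replicate 2 from 6.16 to 33.7 (median 10.3). Distal regions of this strength were thus at the level of strong promoters. The 2-fold limit was not applied to promoter regions. Among them, 3329 (17.7%) had a mean signal at or above the weakest of the 500, and 4 were at or above the strongest. The highest mean among distal regions that the limit left out was 60.8, against 55.1 among promoter regions.

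The libraries gave similar values for most of the regions. The ratio of replicate 2 to replicate 1 had a median of 0.953 and ran from 0.504 to 1.99, within the 2-fold limit that the choice imposed. The middle 50% of regions had ratios of 0.809 to 1.17, and 282 regions (56.4%) were higher in replicate 1. If a step of the deposited signal stands for 1 tag, the weakest value rested on 699 tags in replicate 1 and 739 in replicate 2. Counting error of these values would then be 3.78% and 3.68%.

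**Figure D1:**
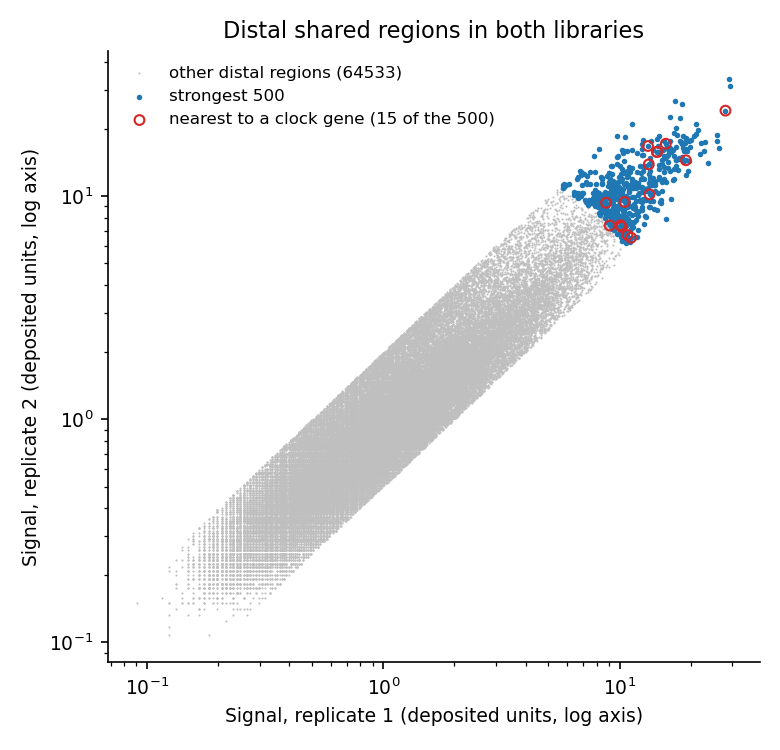
Signal of each distal region in replicate 1 (x axis) and replicate 2 (y axis), both in deposited units on log axes; each point is a region. The 500 strongest (blue) form the upper end of the cloud of all 65033 distal regions, and the 15 nearest to a clock gene (red circles) are spread along it; the straight edges are the 2-fold limit of the choice.

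Choosing on 1 library alone left the signal of the other out of the ranking, and here the 2-fold limit was not applied. Each region still had to hold a peak in both libraries, so presence in the other was fixed in advance. The 500 distal regions strongest in replicate 1 had a median of 9.84 in replicate 2, where all 75723 distal regions had a median of 0.892, and the lowest of them had 3.61. Of these, 499 (99.8%) were in the top 5% of replicate 2 and 319 (63.8%) were in its own strongest 500. The 500 strongest in replicate 2 had a median of 9.92 in replicate 1 (all distal, 0.91), with a lowest value of 3.13 and 490 (98%) in the top 5%. Among shared regions, high signal in 1 library thus went with high signal in the other.

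The limit fell in a dense part of the ranking. The last 3 regions inside it were nearest to Junb (7.32 in replicate 1 and 9.16 in replicate 2), Ssbp2 (6.66 and 9.80) and Irf2bpl (9.29 and 7.14). Regions just outside it were nearest to Rbx1 (8.15 and 8.26) and Mknk2 (8.38 and 8.01). Regions on either side differed by less than the spread between the libraries.

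The other deposited calls come from the same reads as the signal, so they are descriptions here. All 500 (100%) were in the shorter, stricter peak list of both libraries, against 62.8% of all distal regions. The next 500 in rank also had 100%. The deposited false discovery rate (FDR) of the best base was at most 6.79e-16 in replicate 1 and 1.30e-12 in replicate 2. In the 1000 bases around a centre, a median of 829.5 bases in replicate 1 and 884 in replicate 2 were listed at an FDR under 0.05, against 332 and 322 for all distal regions. A higher peak passes the FDR limit over more bases, so this does not show wider opening. The called width had a median of 260 bases, against 240.

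All 500 regions (100%) held at least 1 footprint shared by both libraries, against 62.3% of all distal regions and 99.8% of the next 500 in rank. The median was 5 shared footprints per region, or 17.5 per kb, against 1 and 4.17. The largest number, 18, was in a 900-base region in Zbtb20. The count moved with signal, with a median of 5 at ranks 1 to 100, 3 at ranks 1001 to 2000 and 0 at ranks 40001 to 65033. The part of depth in the footprint counts was not tested.

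Most of the first 8 regions lay within 500 bases of the start of a gene that is not protein-coding, a noncoding transcript or a RefSeq mRNA, and ranks 1 and 3 did not. Rank 1 lay at chr15:99735641-99736060, in an exon of Cers5, a ceramide synthase gene, and 10023 bases from the TSS of Cox14. Its signal was 29.2 in replicate 1 and 33.7 in replicate 2. It was poor in CpG (observed to expected ratio 0.0909), held 3 shared footprints and none of the 25 motifs searched. Rank 2, at chr16:4541861-4542080, had 29.4 and 31.2. It lay 10882 bases from Tfap4, which encodes a helix-loop-helix factor, and within 500 bases of the start of a noncoding transcript and of a RefSeq mRNA of Srl. Rank 3, at chr11:98773821-98774220 in an intron of the clock gene Nr1d1, had 28.1 and 24.2.

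Rank 4, at chr13:48546541-48546820, had 25.9 in replicate 1 and 18.9 in replicate 2, and lay 41 bases from the TSS of the lincRNA 6720427I07Rik. Ranks 5 and 6, at chr8:20122141-20122320 and chr8:20424821-20424940, lay at pseudogene starts in a duplicated stretch of chromosome 8. Their signals were 18.4 and 25.8, and 17.1 and 26.8. Both held CTCF, SP/KLF and TFAP2 motifs, and both were higher in replicate 2. Rank 7, at chr11:75461261-75461660 (25.8 and 17.6), overlapped the TSS of Mir22hg, the host gene of miR-22. Rank 8, 979 bases from Fbrs at chr7:127477721-127478220 (26.3 and 16.4), lay within 500 bases of a RefSeq mRNA start of that gene.

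The other 12 regions of the top 20 included those nearest to the repressor gene Foxn3 (21 in both libraries), the zinc finger gene Zbtb20 (23.0 and 17.5) and the MYC antagonist gene Mxi1 (18.0 and 22.5). Rprd2, whose protein binds RNA polymerase, had 20.6 and 18.6, Mef2d had 22.7 and 15.9, and the corepressor scaffold gene Sin3a had 23.8 and 14.1. Others were nearest to Cct8l1 (21.1 and 19.1), the trafficking gene Trappc9 (22.1 and 17.3), Gm42791 (16.4 and 22.6) and the ligand gene Wnt7b (20.1 and 17.8). The nearest gene is a name for a position and does not say which gene a region acts on.

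By position, the strongest regions were less often intronic and more often exonic than distal regions in general. Exons and introns were those of any annotated gene, coding or not. Exons held 126 of the 500 (25.2%, exact binomial interval at the 95% level 21.5 to 29.2), against 13.6% of all distal regions. Introns held 166 (33.2%, 29.1 to 37.5), against 49.3%, and intergenic sequence held 208 (41.6%, 37.2 to 46.1), against 37.1%. The next 500 in rank had 25.6% in exons, 39.6% in introns and 34.8% in intergenic sequence, so the exon share was not particular to the strongest 500. Intervals here and below cover counting error only and not the spread between animals. A coding sequence was overlapped by 27 regions (5.4%, 3.59 to 7.76), against 5.53%, and an untranslated region by 20 (4%, 2.46 to 6.11), against 3.87%, so neither share differed beyond its interval.

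Distance to the nearest coding TSS was shorter than usual. The median was 8278 bases, against 22686, with a range of 510 to 905459. Within 2000 bases lay 120 regions (24%), against 10.9%, and beyond 50 kb lay 76 (15.2%), against 29.8%. The strongest set therefore held both regions just outside the 500-base window and regions far from any coding gene.

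A share of the regions lay near annotated starts of other transcripts, and promoter activity was not tested. Within 500 bases of the TSS of a gene that is not protein-coding lay 84 (16.8%, 13.6 to 20.4), against 4.03% of all distal regions. The next 500 in rank had 14%, which is inside that interval. These included 27 at lincRNA genes, 24 at genes of processed transcripts and 14 at antisense genes. A noncoding transcript of a coding gene started within 500 bases of 43 regions (8.6%, 6.29 to 11.4), against 3.15%. RefSeq places an mRNA start within 500 bases of 56 regions (11.2%, 8.57 to 14.3), against 2.64% of all distal regions, although the GENCODE annotation used for the choice has no coding start there. With these classes made exclusive, and with a RefSeq start of any kind as a further class of 50, 328 regions (65.6%, 61.3 to 69.8) had no annotated TSS within 500 bases, against 89.5% of all distal regions.

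Small RNA genes were among them. The strongest such region lay 206 bases from the snRNA gene Gm26243 near Tmem259 (chr10:79984881-79985300), with 19.5 in replicate 1 and 13.0 in replicate 2. The next overlapped Rn7s2, a gene for the 7SL RNA of the signal recognition particle (chr12:69361441-69361620, 11.9 and 15.7). A region 248 bases from Mir210, which encodes a hypoxia-induced microRNA, had 12.7 and 11.9. The start of Kcnq1ot1, an antisense RNA known from imprinting, lay 32 bases from the region at chr7:143296581-143296820 (9.57 and 8.60).

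Base composition differed from that of distal regions in general. A window was called CpG-rich where at least 50% of its 200 bases were G or C and the observed to expected CpG ratio was at least 0.6. Of the 500 windows, 235 (47%, 42.6 to 51.5) were CpG-rich, against 5.34% of all distal windows and 65.7% of promoter windows. Median GC content was 60.5%, against 51% over all distal regions and 63% over promoter regions. The median CpG ratio was 0.575, against 0.235 and 0.744. Both medians lay nearer to those of promoters. Among regions over 2000 bases from every coding TSS, the strongest 500 had a CpG-rich share of 37.4%. The share over all distal regions at that distance was not computed. Of that strongest set, 16.4% lay within 500 bases of a TSS of a gene that is not protein-coding.

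CpG-rich windows were most frequent at annotated starts and not limited to them. They made up 54 of the 84 regions at noncoding genes (64.3%), 26 of the 38 at noncoding transcripts of coding genes only (68.4%) and 33 of the 50 at starts in RefSeq alone (66%). Of the 328 with no annotated TSS, 122 (37.2%, 31.9 to 42.7) were CpG-rich, against 3.82% of the 58216 distal regions with no annotated TSS. The other 206 had neither a start nor a CpG-rich window, and the Cers5 exon region of rank 1 was the strongest of them.

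The CpG-rich share fell steadily with rank. It was 73% in ranks 1 to 100, 47.3% in ranks 101 to 250 and 36.4% in ranks 251 to 500. It went on falling outside the set, to 27.8% in the next 500 ranks and 3.06% in ranks 40001 to 65033. The limit of 500 is thus a point on a slope and not a boundary between kinds of region.

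**Figure D2:**
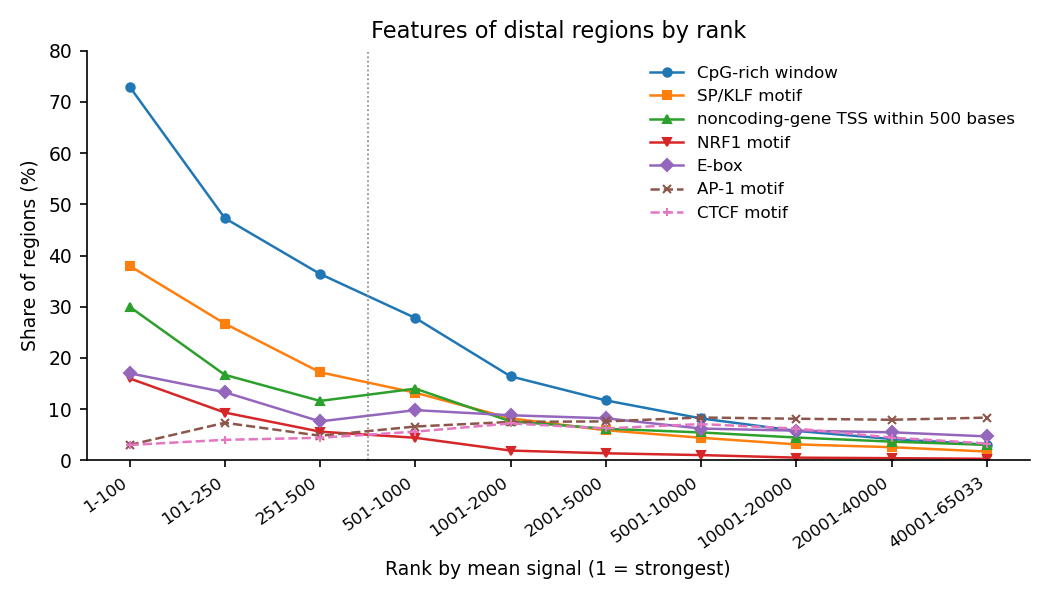
Share of distal regions with a feature (y axis, %) by rank of mean signal (x axis, 10 bins; the dotted line marks the limit of 500). The CpG-rich share falls from 73% in ranks 1 to 100 to 3.06% in the last bin, SP/KLF from 38% to 1.71% and NRF1 from 16% to 0.296%, while AP-1 is 3% in the first bin and 8.34% in the last.

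Motifs of ubiquitous promoter factors were frequent. The SP/KLF motif, bound by zinc finger factors at GC-rich promoters, was in 121 windows (24.2%, 20.5 to 28.2), against 2.95% of all distal windows and 23.6% of promoter windows. The motif of NRF1, an activator of genes of respiration, was in 44 (8.8%, 6.47 to 11.6), against 0.594% and 9.01%. The motif of CREB, which responds to cyclic AMP, was in 22 (4.4%, 2.78 to 6.59), against 0.418% and 2.44%. The motif of ETS factors (CCGGAAGT) was in 14 (2.8%, 1.54 to 4.65), against 0.518% and 4.83%. For SP/KLF and NRF1 the shares were near those of promoter regions, and the Rprd2 window printed above holds both.

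Composition moved with these motifs, and values within composition classes are given for that reason. In CpG-rich windows, NRF1 was in 17% of the 235 strongest against 6.6% of all 3470 CpG-rich distal windows, SP/KLF in 37.4% against 15.9% and CREB in 7.66% against 1.67%. In the other windows, SP/KLF was in 12.5% of 265 against 2.22%, NFY in 4.53% against 1% and NRF1 in 1.51% against 0.255%. The differences were thus present in both classes. The TFAP2 pattern, which also matches parts of other GC-rich motifs, was in 19.2% of the windows that were not CpG-rich against 9.04%, but in 15.3% of the CpG-rich ones against 18.2%.

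Several other motifs were not more frequent than in distal regions in general. The AP-1 motif, bound by FOS and JUN dimers, was in 26 windows (5.2%, 3.42 to 7.53), below the 8.09% of all distal windows. In windows that were not CpG-rich it was in 7.92% against 8.34%. The RORE motif was in 7 windows (1.4%, 0.565 to 2.86), against 2.46% of all distal windows, which the interval includes. The GRE pattern was in 18 windows (3.6%, 2.15 to 5.63), below the 6.22% of all distal windows. The motifs of HNF1 and HNF4 factors, which act in proximal tubule and liver, were in 7 windows (1.4%) against 1.69% and in 3 (0.6%) against 1.6%, where the HNF4 motif was CAAAGTCCA. The intervals, 0.565 to 2.86 for HNF1 and 0.124 to 1.74 for HNF4, include the value of all distal regions. No MEF2 or REST match was found, with an exact binomial interval from 0 to 0.735%. That interval includes the shares of all distal windows, 0.449% for MEF2 and 0.0815% for REST.

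The CTCF motif, which marks insulators and chromatin loop anchors, was in 20 windows (4%, 2.46 to 6.11), against 4.6% of all distal windows. This value rested on the choice of libraries. Inside the 2-fold limit, which uses both libraries, the strongest 500 ranked by replicate 2 had 7.8% and those ranked by replicate 1 had 2.4%. Over all 2989 distal windows with the motif, replicate 2 over replicate 1 had a median log2 ratio of 0.615 (SD over regions 0.376), against −0.0987 (0.486) over all distal regions. All these regions had passed the 2-fold limit, so regions with the motif that differed more were not counted. In the 20 of the strongest set the median log2 ratio was 0.438, against −0.0693 over the 500. Regions with the motif were thus higher in replicate 2 relative to other regions, a difference between the libraries of 1 group.

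After the pair in the duplicated stretch of chromosome 8, the strongest region with a CTCF motif lay 639 bases from Med13, a Mediator subunit gene (chr11:86358241-86358500, 15.1 in replicate 1 and 14.0 in replicate 2). Another, 76415 bases from the chromatin remodeller gene Chd2 at chr7:73618161-73618700, had 9.72 and 13.9 and was higher in replicate 2.

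**Figure D3:**
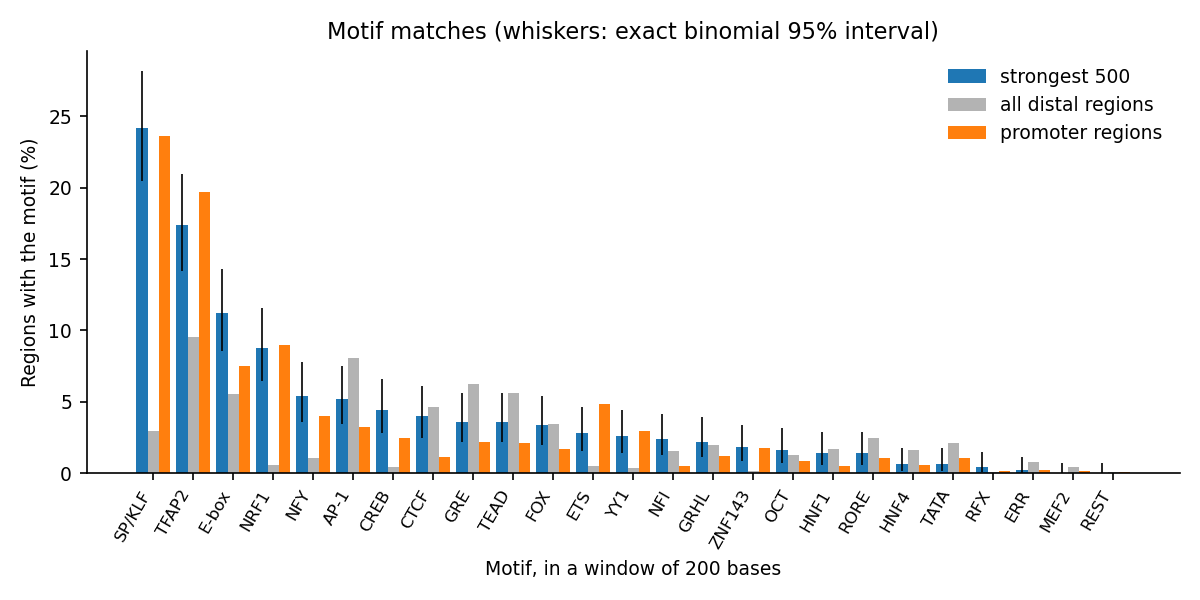
Share of 200-base windows with each motif (y axis, %) in the 500 strongest distal regions (blue, with exact binomial intervals at the 95% level), in all distal regions (grey) and in promoter regions (orange). SP/KLF stands at 24.2%, 2.95% and 23.6%, and AP-1 at 5.2%, 8.09% and 3.24%.

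Footprints covered some motifs nearly always and others rarely. A match was counted as covered where 50% or more of its bases lay in a footprint shared by both libraries. In the 500 windows 40.7% of all bases lay in such footprints. Coverage was found for 140 of 145 SP/KLF matches (96.6%), 56 of 61 NRF1 matches (91.8%), 21 of 22 CTCF matches (95.5%), 21 of 22 CREB matches (95.5%) and all 12 NFI matches. Of 67 E-box matches, 51 (76.1%) were covered.

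Other motifs had lower shares of covered matches than the 40.7% of all window bases, which is a share of bases and not of matches. The counts were small and no interval was computed for them. Of 28 AP-1 matches 8 were covered (28.6%), of 18 GRE matches, the pattern of steroid receptors, 5 (27.8%), of 19 TEAD matches (CATTCCA) 6 (31.6%) and of 17 FOX matches (TGTTTAC) 1 (5.88%). Of 7 RORE matches 2 were covered (28.6%). NFY, another factor of CpG-rich promoters, had 12 of 28 (42.9%), close to the windows as a whole. Motif matches without a footprint call were thus found even in the most open distal regions. Matches in 1 region share its cuts, and no test was made.

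**Figure D4:**
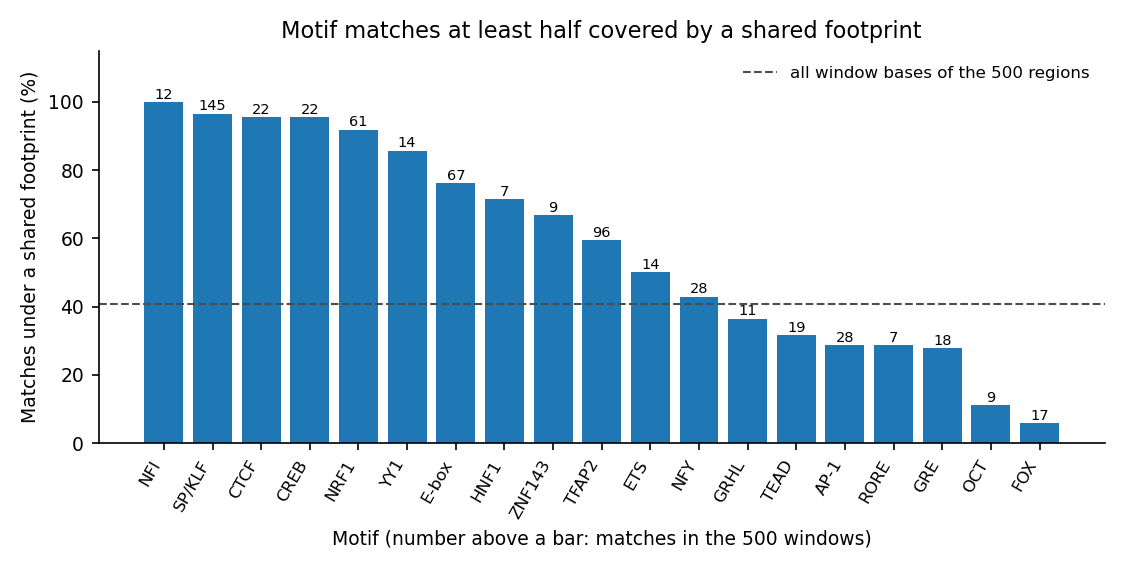
Share of motif matches covered to 50% or more by a footprint shared by both libraries (y axis, %) in the windows of the 500 regions, for motifs with 7 or more matches; numbers above bars count matches and the dashed line is the share of all window bases in such footprints (40.7%). SP/KLF, CTCF, CREB, NRF1 and NFI stand above 90%, and FOX stands at 5.88%.

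Genes of the circadian clock were the nearest coding gene of several of the strongest regions. The list held 20 clock genes and was written with the Nr1d1 region already known to be strong, so it is not independent of these data. They were nearest to 15 of the 500 regions (3%, 1.69 to 4.9), against 0.291% of all distal regions. In the strongest 1000 the share was 1.6%, since the next 500 ranks held 1 further region. The strongest 500 of replicate 1 alone, with no 2-fold limit, held 15 and those of replicate 2 alone 10. Of the 75723 distal regions without that limit, 0.279% were nearest to a clock gene. By gene, 12 of the 20 had at least 1 of the 500, and the share over all genes was not computed. The 20 genes had from 1 (Per3) to 47 (Rora) distal regions each. None of the 15 regions had a near-identical copy in the genome, and 6 were CpG-rich.

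The 3 highest values among the 15 were at the repressor genes Nr1d1 and Per1. Nr1d1 encodes REV-ERBα, a nuclear receptor that represses the gene of BMAL1, and it had 2 regions. The intronic one, 1113 bases downstream of the TSS, is rank 3 and is given above. The second, 8048 bases upstream at chr11:98783381-98783640, had 19.1 in replicate 1 and 14.5 in replicate 2 and held an E-box under a footprint. Per1, a period gene, had a region at chr11:69096981-69097240 with 15.7 and 17.2, which held a CREB motif and a GRE pattern but no E-box. Per2 had a weaker one in an intron, 12924 bases from the TSS used, with 10.1 and 7.42. Cry2, a cryptochrome gene, had an intronic region at chr2:92423821-92424040 with 13.3 and 13.9 and 2 covered E-boxes.

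Bhlhe41 and Bhlhe40 encode repressors that themselves bind the E-box. The Bhlhe41 region, 9342 bases downstream of the TSS at chr6:145855741-145855960, had 13.2 in replicate 1 and 16.8 in replicate 2, and its window holds E-boxes beside NRF1 and SP/KLF motifs. The Bhlhe40 region lay 929 bases upstream, with 13.4 and 10.2 and no motif of the set. Nfil3, whose protein competes with the DBP family, had a region 86948 bases upstream with 11.2 and 6.52, the widest gap between libraries among the clock regions.

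The DBP family of output activators was represented by all 3 of its genes in the list. Dbp had a region 2337 bases downstream of its TSS at chr7:45707621-45707860, at the start of a noncoding Dbp transcript, with 14.4 in replicate 1 and 15.8 in replicate 2. A second Dbp region, 677 bases downstream, had 8.77 and 9.35. Hlf had the same 14.4 and 15.8 in a region 27106 bases upstream (chr11:90418001-90418260), and 10.8 and 6.70 in an intronic one 32413 bases downstream. Tef had 10.5 and 9.43 in a region 606 bases from its TSS. The Hlf and Dbp windows printed above each hold an NRF1 motif and more than 1 E-box.

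The nuclear receptor activator gene Rora had an intronic region near the end of the ranking, with 9.08 in replicate 1 and 7.40 in replicate 2. The activators of the E-box had no region in the 500. The strongest distal region of Arntl, which encodes BMAL1, was at rank 4602 (3.59 and 3.03), that of Npas2 at rank 4590 (3.40 and 3.23) and that of Clock at rank 25659. Those of Ciart, Nr1d2, Cry1, Rorb and Per3 were also outside, at ranks 4172, 8542, 22168, 31103 and 38947. For the strongest region of each gene, no value of the 12 genes inside was under 6.52 and no value of the 8 outside was over 4.02, an order that the choice itself fixes.

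**Figure D5:**
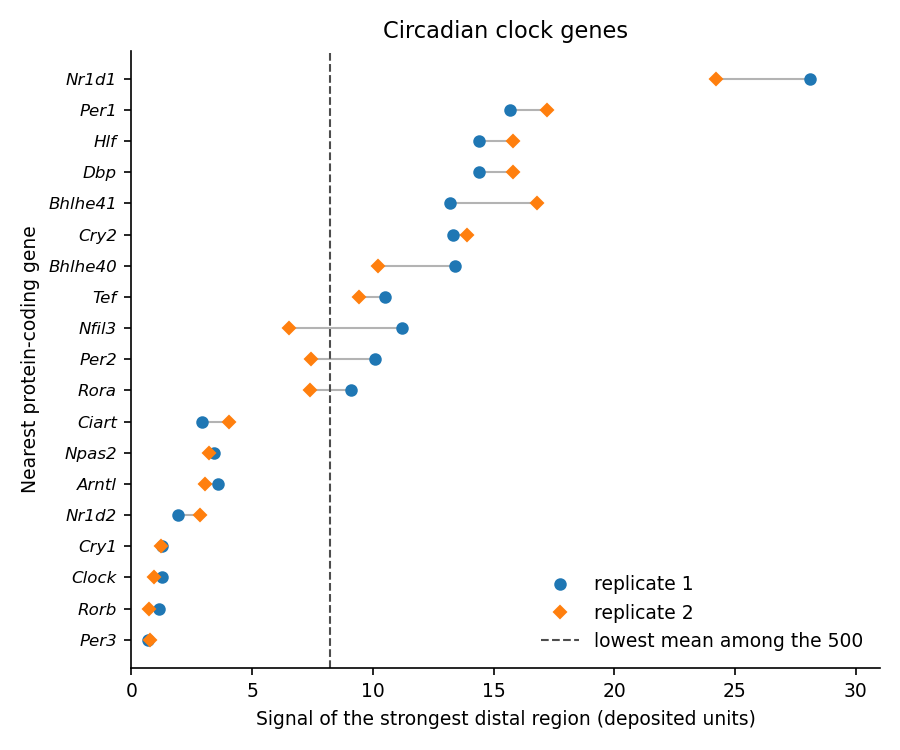
Signal of the strongest distal region of 19 of the 20 clock genes (x axis, deposited units) in replicate 1 (circles) and replicate 2 (diamonds), ordered by rank; the dashed line is the lowest mean signal of the 500 (8.21). Nr1d1 is highest at 28.1 and 24.2, and Arntl, Clock and Npas2 lie left of the line.

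The E-box was frequent in the clock regions and, to a lesser degree, in the others. Among the 15, 6 held it (40%), against 10.3% of the other regions in the set. Over the 500, 56 windows held it (11.2%, 8.57 to 14.3), against 5.52% of all distal windows and 7.47% of promoter windows. In windows of 400 bases the shares were 17.8% against 8.48%. In the windows that were not CpG-rich the E-box was in 9.81% against 5.28%, and in the CpG-rich ones in 12.8% against 9.74%. No interval was computed for these class shares. By rank, the E-box share was 17% in ranks 1 to 100, 13.3% in ranks 101 to 250, 7.6% in ranks 251 to 500 and 9.8% in the next 500. Many other factors bind this sequence, MYC, USF and TFE3 among them. The Mnt region (chr11:74832041-74832460, 19.2 in replicate 1 and 16.3 in replicate 2), near the gene of a MYC antagonist, was one of the stronger E-box regions outside the clock list.

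Immediate early genes, which are induced within minutes of a stimulus, were the nearest gene of 7 regions (1.4%, 0.565 to 2.86), against 0.358% of all distal regions. Jun had a region 1019 bases from its TSS, at the start of the antisense gene Junos (chr4:95053241-95053480), with 12.7 in replicate 1 and 13.6 in replicate 2. Fos had a CpG-rich one at 18330 bases with 12 and 11.4, Ier2 had one at 1109 bases with 13.2 and 10.9, and Ier3 had one at 8124 bases with 10.9 and 12.3. The other 3 were nearest to Junb, with mean signals from 8.24 to 9.59. They lay within 4.72 kb of each other, and the interval counts each as a separate region.

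Few of the regions were nearest to genes of the nephron, as was so for distal regions in general. Of 39 proximal tubule genes, 3 had one (0.6% of the 500, 0.124 to 1.74, against 0.335%), and the interval includes the share of all distal regions. Slc6a19, the neutral amino acid transporter of the brush border, had 13.3 in replicate 1 and 8.96 in replicate 2 in an intragenic region at chr13:73692421-73692760. G6pc, which encodes the glucose-6-phosphatase of gluconeogenesis, had 12 and 8.13 at 4941 bases, with the covered HNF1 match printed above. Slc4a4, the basolateral bicarbonate cotransporter, had 9.53 and 7.33. All 3 were higher in replicate 1.

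Among 30 kidney transcription factor genes, Bhlhe41, which is also on the clock list, was the nearest gene of 1 region (0.2%, 0.00506 to 1.11, against 0.697%). The podocyte list had 1 (against 0.165%), nearest to Cdkn1c, but it lay 163342 bases away at the start of Kcnq1ot1. The housekeeping list had 1 (against 0.08%). These intervals include the shares of all distal regions. The lists for intercalated and principal cells, the distal convoluted tubule, the thick ascending limb, stroma, endothelium, hepatocytes, immune cells, muscle and neurons had 0 of 500, with an interval from 0 to 0.735%. Over all distal regions these lists took between 0.0384% and 0.185%, so a count of 0 is not distinguishable from those values at this number of regions.

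The regions were mostly scattered. Linked at up to 50 kb they formed 434 loci, of which 391 held a single region and 43 held the other 109. The 3 densest held 5 regions each. They spanned 52.7 kb around Chd3 and Kdm6b (chr11:69366481-69419160, mean signals 8.5 to 12.4), 126 kb around Actg1, Bahcc1 and Slc38a10 (chr11:120190001-120316400, 8.24 to 18.6) and 93.5 kb at Irf2bpl and Lrrc74a (chr12:86801241-86894720, 8.21 to 12.5). Chromosome 11, which is rich in genes, held 67 of the 500 (13.4%), against 7.28% of all distal regions.

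In all 443 genes were the nearest gene of a region, and 10 of them of 3 or more. Irf2bpl, the histone demethylase gene Kdm6b and the prothymosin gene Ptma had 4 each. Chd2, the cold-inducible RNA-binding protein gene Cirbp, Junb, the glucocorticoid-responsive Klf15, Mef2d, Tlcd2 and Zmiz1 had 3 each. The Klf15 regions ranged from 9.73 to 11.2 in mean signal, and none was CpG-rich. The Cirbp regions ranged from 12.3 to 14, and the strongest of them had 14.7 in replicate 1 and 13.2 in replicate 2.

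Copies of most of the window were found for few of the regions. The search could not show shorter repeats, and read mapping to the CAST/EiJ chromosome set was not examined. A near-identical copy, at 95% identity or more over at least 80% of the window, was found elsewhere in the genome for 9 (1.8%, 0.826 to 3.39), against 1.2% of the next 500. Without the 2-fold limit the share was 3.4%. Of the 9, 4 lay in the duplicated stretch of chromosome 8, with 18.4 and 25.8, 17.1 and 26.8, 14.7 and 18.6, and 9.27 and 13.6 in replicates 1 and 2. All 4 were higher in replicate 2. The region near Gm10717 (chr9:3024361-3024620, 8.04 and 10.4) was wholly repeat-masked and had 201 copies, so its signal cannot be assigned to that position. Leaving out all 9 kept the other shares within their intervals.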

How the data were processed

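DNase-seq was measured in 2 libraries of mouse kidney, 1 group. The authors deposited 2 peak lists per library with a signal value per peak, a false discovery rate (a q-value) per run of bases, listed only up to 0.05, and footprints at a constant q-value or p-value level of 0.01, all on mm10 and made per library without pooling, per the file headers. The signal values were whole multiples of 0.00827 and 0.00834 (100% within 0.05 steps). The longer lists held 137083 and 125000 peaks. Not given in the sources used here were the aligner, the peak caller and the footprint caller.

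Peaks of the longer lists that overlapped by at least 1 base were merged, and regions with a peak of both libraries took the highest signal of each. TSS were the starts of protein-coding transcripts of protein-coding genes in GENCODE M21. Sequence came from RefSeq GRCm38.p6, with coordinates 1-based. Motifs were searched on both strands in 200-base windows centred on the region, since the lists give no summit. A shared footprint was a footprint of replicate 1, in its own extent, that a footprint of replicate 2 overlapped by at least 1 base. Copies were sought with blastn 2.17.0, and other steps ran in Python 3.11.15, pandas 2.3.3 and scipy 1.17.1, tested on simulated data.

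With 1 group, no test across samples was possible. Shares are given with exact binomial intervals beside the share of all distal regions. Regions were named by rule: the top 20, the strongest of each kind and gene list, those at the limit and the 3 densest loci, with the E-box region near Mnt, the CTCF region near Chd2, the region at Mir210 and the genes with 3 or more regions added after their values were seen. Some regions and genes that this rule names are not reported here. The regions, the 25 motifs and the 16 gene lists were chosen with earlier results of these data known. Alternatives covered the size of the set, the libraries, the 2-fold limit, the TSS distance, the peak list, the overlap and the window.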

Additional observations from a re-analysis of the deposited data

How the results depend on the processing

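Of 147 recomputed shares, 133 stayed within the interval of the main value. Beyond it moved the exon share, 21.2% with other transcripts of coding genes left out too, and, in the strongest 250, the intron share (27.2%), the share at noncoding-gene TSS (22%), the CpG-rich share (57.6%) and the E-box share (14.8%). The CpG-rich share was 37.4% in the strongest 1000, 41.2% over 1000 bases and 37.4% over 2000 bases from a TSS. With ranking by 1 library inside the 2-fold limit it ran from 41.8% to 48.8%, and the CTCF share ran from 2.4% to 7.8%. The copy share was 3.4% with no ratio limit, the clock share 1.6% in the strongest 1000, and the E-box share 17.8% in 400-base windows. Windows of other sizes and other sets hold other regions, and the causes were not tested. Ranking by 1 library inside the 2-fold limit, which uses both libraries, kept 82.8% or 85% of the 500. Without the limit, choosing on replicate 1 alone kept 83.4% and on replicate 2 alone 78.4%. A TSS distance of 2000 bases kept 76%. No paired analysis was possible because there is 1 group. The weakest values of the 500 were 699 and 739 steps, so counting limits them little if steps are tags. The clock and E-box alternatives, leaving out regions with copies and leaving out other transcripts were chosen after seeing the data.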

Other observations

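The 2-fold limit removed 21 distal regions whose mean signal was above that of the weakest of the 500. Of these, 18 were higher in replicate 2 and 3 in replicate 1, and 8 had a near-identical copy elsewhere in the genome. None matched mitochondrial DNA. The strongest lay at chr17:39846781-39846920, with 32.2 in replicate 1 and 89.3 in replicate 2. It was in an exon of CT010467.1 and 38 bases from the TSS of the lincRNA Gm42418. The next were nearest to Gm8797 (20.8 and 58.4), Igf2bp3 (14.9 and 54.9) and Limd1 (16.7 and 44.7). In replicate 2 each of these 4 exceeded the strongest of the 500, which had 33.7 there. In the order named, the 4 had 1, 11, 2 and 1 near-identical copies. Copies missing from the reference sequence could not be counted.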
